A study of Mus musculus with 30 samples.

Results

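The genes described here encode the ISG15 modifier and the enzymes that attach it to proteins and take it off again: Isg15, Uba7, Ube2l6, Herc6 and Usp18. They were chosen by name as the ISG15 system, not by any measured value, although earlier results of these data were known. They are 5 of the 49315 genes in the count tables. All 5 were among the 21138 genes tested, which had at least 10 reads combined over the 24 libraries. Bulk RNA sequencing was performed on 2 mouse tumor cell lines labelled C57BL/6, with 3 libraries in each of 8 groups. B16F10 is a melanoma line, and 6694c2 is a pancreatic ductal adenocarcinoma (PDAC) line that is 1 clone from a mouse tumor model with Pdx-Cre and a YFP reporter. Each line was cultured for 24 h with vehicle, IFNγ (100 ng/mL), IFNβ (1000 U/mL) or a STING agonist (225 μg/mL), and what the vehicle was is not given in the sources used here. The study used these cultures to ask how the tumor cells themselves respond to STING agonist.

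ISG15 is a ubiquitin-like protein made of a pair of ubiquitin-like domains, and it is joined to lysines of other proteins by a cascade of its own. UBA7 activates it as the E1 enzyme, UBE2L6 carries it as the E2, HERC6 is the main E3 ligase of this pathway in mouse, and USP18 removes it. USP18 also binds the IFNAR2 chain of the type I interferon receptor and damps signaling there. Type I interferons such as IFNβ act through ISGF3, a complex that holds STAT2 and IRF9 and binds interferon-stimulated response elements (ISREs), whereas IFNγ acts mainly through gamma-activated sites (GAS). STING, once activated by cyclic dinucleotides, leads to type I interferon production through TBK1 and IRF3.

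Isg15 (ENSMUSG00000035692) lies on the minus strand at chr4:156199424-156200818 (GRCm38), and no other annotated gene overlaps it. Uba7 (ENSMUSG00000032596) lies at chr9:107975505-107984060 and Ube2l6 (ENSMUSG00000027078) at chr2:84798828-84810335, both on the plus strand. Herc6 (ENSMUSG00000029798) and Usp18 (ENSMUSG00000030107) are both on the plus strand of chromosome 6, at chr6:57581000-57664632 and chr6:121245906-121270917. Overlapping genes held few reads: at most 14 per library for Gm20661, which overlaps Uba7, at most 2 for Gm19244 and 0 for Gm45193 within Herc6, and at most 10 for Gm44148 at Usp18. Of the 50-base sequence windows of Herc6, 12% were shared with Gm45193, and of those of Uba7, 2.52% with Gm20661, both on the same strand. For Usp18, 2.81% were shared with Gm44148, on the opposite strand. How the counting treated reads that fit both a member and an overlapping gene is not given in the sources used here. Few reads on an overlapping gene therefore cannot show that no member reads were lost. The strand setting of the counting is not given either, so reads from opposite strands cannot be told apart.

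RefSeq promoter windows of the GRCm38.p6 build were matched for 4 of the 5 genes (Isg15, Uba7, Ube2l6 and Herc6), and the 250 bases before each start were searched on both strands for the ISRE core GAAANNGAAA and the GAS letters TTCNNNGAA. Isg15 held 3 ISRE cores, which overlap each other between bases -78 and -57 counted from the start. Uba7, Ube2l6 and Herc6 held 0 matches to the ISRE core, and all 4 windows held 0 matches to the GAS letters. Among all 32851 windows of this length, 2.98% held an ISRE core and 7.02% held the GAS letters. The 150 bases before the start are printed for Isg15, with the ISRE cores in capitals, beside those of Herc6, the member with the smallest IFNβ fold change in both lines. Ube2l6, also with 0 matches, had the largest IFNβ log2 fold change of the members in B16F10 cells (4.17, against 3.88 for Isg15). A link between these matches and the responses was not tested. The stretches are on the plus-strand coordinates chr4:156200819-156200968 (read on the minus strand) and chr6:57580842-57580991 (read on the plus strand).
Isg15: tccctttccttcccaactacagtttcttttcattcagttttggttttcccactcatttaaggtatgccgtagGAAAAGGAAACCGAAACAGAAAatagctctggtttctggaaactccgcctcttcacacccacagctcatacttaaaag
Herc6: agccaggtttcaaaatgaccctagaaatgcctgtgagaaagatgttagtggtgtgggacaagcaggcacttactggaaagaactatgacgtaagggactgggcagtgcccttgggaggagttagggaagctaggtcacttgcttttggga

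Reads assigned to genes numbered 15543131 to 32266795 a library. Levels are given as CPM, read counts scaled to TMM-normalized library sizes, and fold changes come from edgeR (quasi-likelihood F test, p-values adjusted over all genes tested by the Benjamini-Hochberg method, called at an adjusted p under 0.05). The labels do not say that the 3 libraries of a group came from separate cultures, so the spread behind the p-values may be technical. That spread was largely pooled over genes and is not that of each gene alone. The prior degrees of freedom were 400.0 in the B16F10 fit and 32.4 in the 6694c2 fit, against 8 residual. All 11 melanocyte markers were read in every B16F10 library. All 11 were called lower in 6694c2 than in B16F10 vehicle libraries, by log2 differences of -8.24 to -4.76 (29.3% of all genes were called lower). Krt8, Krt18, Krt19 and Cdh1 were high in 6694c2 vehicle libraries (group means of 577 to 7129 CPM on total reads). Epcam and Esrp1, also epithelial markers, had means of 3.30 and 2.15 CPM in the same libraries, and Cldn4, Cldn7 and Grhl2 at or under 0.297 CPM. Of the leukocyte markers, Cd3e, Cd4 and Cd8a were at 0 in the vehicle libraries of both lines, but others were not. Mean CPM on total reads in B16F10 and 6694c2 vehicle libraries was 7.92 and 11.2 for Ighm and 4.15 and 5.43 for Ms4a1. Lyz2 stood at 5.85 and 0.0942, and Trac at 0.0169 and 4.94. Summed, the leukocyte markers stood at 16.5 to 35.1 CPM over the libraries. Each line also carried a trace of transcripts typical of the other. The summed epithelial markers stood at 0.831% to 1.09% of their 6694c2 vehicle level in B16F10 STING agonist libraries and at 0.114% to 0.163% in B16F10 vehicle libraries. The summed melanocyte markers stood at 0.415% to 0.422% of their B16F10 vehicle level in 6694c2 vehicle libraries and at 0.0923% to 0.112% in 6694c2 STING agonist libraries. With IFNγ the epithelial share ran from 0.132% to 0.309% in B16F10 libraries and the melanocyte share from 0.177% to 0.621% in 6694c2 libraries. With IFNβ they ran from 0.144% to 0.451% and from 0.123% to 0.191%. The part of either trace in the interferon levels was not tested. In bulk RNA, a change in part of the cells cannot be told apart from a smaller change in all of them.

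Isg15, the modifier itself, ranged from 1.34 to 783 CPM over the 24 libraries. In B16F10 cells it stood at 50.3, 44.8 and 51.5 CPM with vehicle, 361, 354 and 350 with IFNγ, 675, 694 and 783 with IFNβ, and 194, 189 and 179 with STING agonist. In 6694c2 cells it stood at 2.86, 1.34 and 1.46 CPM with vehicle, 58.8, 50.03 and 57.6 with IFNγ, 672, 707 and 767 with IFNβ, and 2.68, 2.88 and 3.06 with STING agonist. The lines thus started far apart and met under IFNβ, where their ranges overlapped. With IFNβ, Isg15 rose by a log2 fold change of 3.88 (SE 0.06) in B16F10 cells and of 8.60 (SE 0.13) in 6694c2 cells, which are 14.8-fold and 388-fold. With IFNγ it rose by 2.86 (SE 0.06) and 4.89 (SE 0.13), and with STING agonist by 1.93 (SE 0.06) in B16F10 cells. In 6694c2 cells with STING agonist the log2 fold change was 0.61 (95% interval 0.24 to 0.99, adjusted p = 0.222), and Isg15 did not pass the test there. That comparison turned on 1 library: vehicle replicate 1 held 49 Isg15 reads and the other 2 vehicle libraries 24 each, and without it the log2 fold change was 1.04 (adjusted p = 0.00125). Over all alternatives the adjusted p ran from 0.00125 to 0.639. The median melanocyte marker stood at 0.416% of its B16F10 vehicle level in that library and at 0.468% and 0.421% in the other two.

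**Figure D1:**
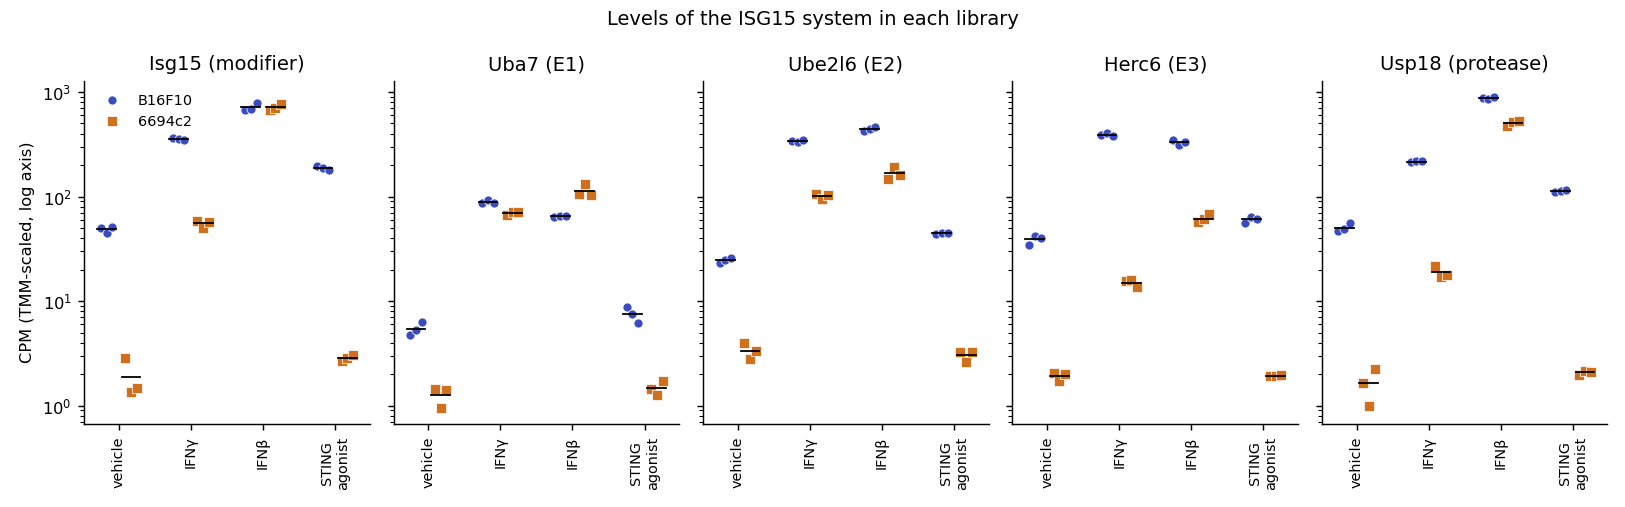
CPM of each member (log axis) in the 24 libraries by treatment, with 1 panel per gene, circles for B16F10, squares for 6694c2 and black lines for group means (n = 3). Isg15 with IFNβ reached 672 to 783 CPM in both lines, whereas with vehicle and with STING agonist every 6694c2 library sat below every B16F10 library for all 5 genes.

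Uba7, the E1 that starts the cascade, was the member with the lowest level per kilobase of exon in each B16F10 group. In B16F10 cells it stood at 4.74, 5.33 and 6.26 CPM with vehicle, 87.1, 93.6 and 87.1 with IFNγ, 63.6, 65.7 and 65.3 with IFNβ, and 8.79, 7.54 and 6.21 with STING agonist. In 6694c2 cells it stood at 1.46, 0.949 and 1.40 CPM with vehicle, 67.0, 71.4 and 71.3 with IFNγ, 107, 131 and 103 with IFNβ, and 1.46, 1.26 and 1.72 with STING agonist. The 6694c2 IFNβ libraries held more Uba7 than any B16F10 library, and the STING agonist and vehicle ranges overlapped in both lines. The log2 fold change with IFNβ was 3.57 (SE 0.09) in B16F10 cells and 6.52 (SE 0.14) in 6694c2 cells. With IFNγ it was 4.02 (SE 0.09) in B16F10 cells and 5.80 (SE 0.14) in 6694c2 cells. With STING agonist it was 0.44 (SE 0.12, adjusted p = 0.0105) in B16F10 cells and 0.23 (95% interval -0.23 to 0.70, adjusted p = 0.845) in 6694c2 cells. The B16F10 STING agonist call was lost in a fit of all 24 libraries (adjusted p = 0.0602) and when vehicle replicate 1 (adjusted p = 0.155), vehicle replicate 2 (0.0532), STING agonist replicate 1 (0.233) or STING agonist replicate 2 (0.0527) was left out, and over all alternatives the adjusted p ran from 0.00168 to 0.233.

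Ube2l6, the E2 that hands ISG15 on, stood at 23.1, 24.9 and 25.9 CPM with vehicle, 343, 331 and 345 with IFNγ, 424, 444 and 460 with IFNβ, and 43.4, 44.8 and 44.99 with STING agonist in B16F10 cells. In 6694c2 cells it stood at 3.97, 2.79 and 3.35 CPM with vehicle, 105, 95.7 and 104 with IFNγ, 146, 191 and 162 with IFNβ, and 3.23, 2.63 and 3.24 with STING agonist. Every pair of neighbours in the order of the 8 groups was apart except 6694c2 vehicle and STING agonist, which overlapped. The log2 fold change with IFNβ was 4.17 (SE 0.06) in B16F10 cells, the largest of the members there, and 5.66 (SE 0.12) in 6694c2 cells. With IFNγ it was 3.78 (SE 0.06) and 4.93 (SE 0.12). With STING agonist Ube2l6 rose by 0.84 (SE 0.07) in B16F10 cells, and the 6694c2 value was -0.15 (95% interval -0.48 to 0.18, adjusted p = 0.884).

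Herc6, the ligase, stood at 34.6, 42.2 and 40.0 CPM with vehicle, 387, 407 and 375 with IFNγ, 346, 310 and 334 with IFNβ, and 55.8, 64.2 and 61.2 with STING agonist in B16F10 cells. In 6694c2 cells it stood at 2.04, 1.73 and 2.01 CPM with vehicle, 15.7, 15.8 and 13.6 with IFNγ, 56.5, 60.3 and 67.7 with IFNβ, and 1.93, 1.91 and 1.97 with STING agonist. In B16F10 cells IFNγ gave the higher level, in 6694c2 cells IFNβ did, and in both lines these ranges were apart. The 6694c2 IFNβ range overlapped that of B16F10 cells given STING agonist. The log2 fold change with IFNβ was 3.09 (SE 0.06) in B16F10 cells and 5.03 (SE 0.13) in 6694c2 cells. With IFNγ it was 3.32 (SE 0.06) and 2.97 (SE 0.14). With STING agonist Herc6 rose by 0.63 (SE 0.06) in B16F10 cells, and the 6694c2 value was 0.01 (95% interval -0.36 to 0.39, adjusted p = 1.0).

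Usp18, the protease that removes ISG15, showed the widest gap between the interferons. In B16F10 cells it stood at 46.6, 48.8 and 56.2 CPM with vehicle, 215, 216 and 217 with IFNγ, 873, 850 and 902 with IFNβ, and 110, 113 and 114 with STING agonist. In 6694c2 cells it stood at 1.63, 1.004 and 2.26 CPM with vehicle, 21.7, 16.9 and 17.96 with IFNγ, 468, 521 and 523 with IFNβ, and 1.97, 2.16 and 2.11 with STING agonist. All neighbours in the order of the 8 groups were apart except 6694c2 vehicle and STING agonist. The log2 fold change with IFNβ was 4.12 (SE 0.06) in B16F10 cells and 8.32 (SE 0.13) in 6694c2 cells, the latter 319-fold. With IFNγ it was 2.09 (SE 0.06) and 3.55 (SE 0.15). With STING agonist Usp18 rose by 1.15 (SE 0.06) in B16F10 cells, and the 6694c2 value was 0.37 (95% interval -0.04 to 0.78, adjusted p = 0.685).

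**Figure D2:**
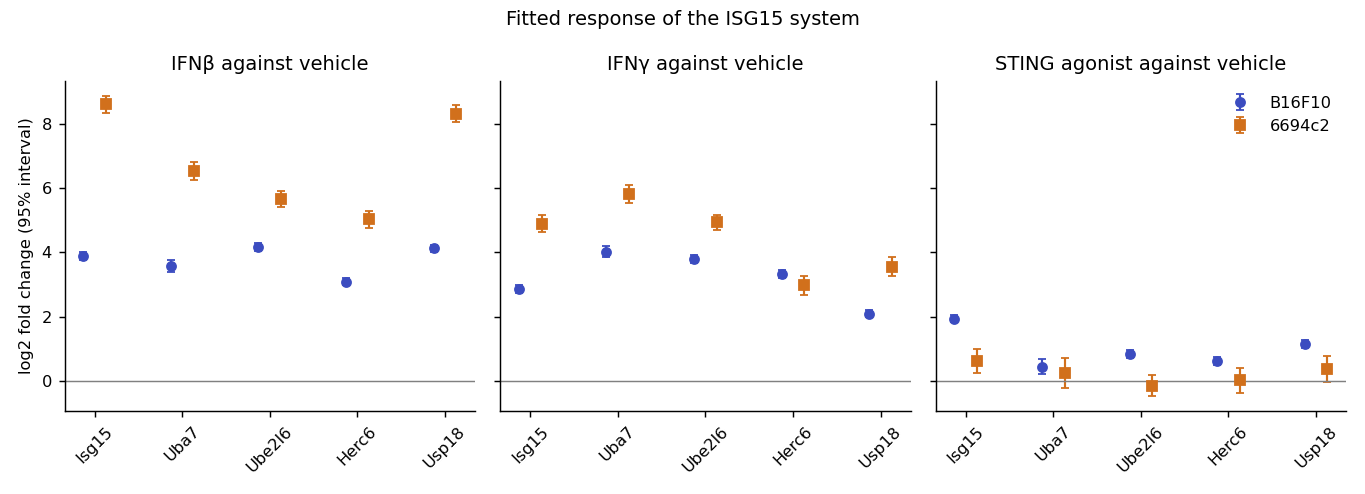
Fitted log2 fold change against vehicle with its 95% interval for each member, with 1 panel per treatment, circles for B16F10 and squares for 6694c2. Isg15 and Usp18 reached 8.60 and 8.32 in 6694c2 cells with IFNβ, and with STING agonist the B16F10 values lay between 0.44 and 1.93.

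With IFNβ, all 5 members were called higher in B16F10 cells, where 12.7% of all genes tested were called higher, and all 5 in 6694c2 cells, where 10.4% were. The members' median log2 fold change was 3.88 in B16F10 cells and 6.52 in 6694c2 cells, beside 0.02 and 0.00 over all genes tested. By the size of p, the members stood between the 9th (Usp18) and the 68th (Uba7) of the 21138 genes in B16F10 cells, and between the 8th (Isg15) and the 80th (Herc6) in 6694c2 cells. With IFNγ, all 5 were again called higher in B16F10 cells (12% of all genes) and in 6694c2 cells (7.89%). The median member changed by 3.32 and 4.89, beside 0.00 over all genes in both lines. With IFNγ Uba7 had the largest fold change of the 5 in both lines, whereas with IFNβ Ube2l6 had it in B16F10 cells and Isg15 in 6694c2 cells. No fit that left out a library lost a member call in these comparisons.

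The interferons were also compared directly. In B16F10 cells, Isg15, Ube2l6 and Usp18 were higher with IFNβ than with IFNγ (6.65% of all genes were called higher), and Uba7 and Herc6 were lower (7.85% were called lower). Usp18 differed the most, by 2.03 (SE 0.05, adjusted p = 5.12e-130), followed by Isg15 with 1.03 (SE 0.05) and Ube2l6 with 0.39 (SE 0.05). Uba7 was lower by a log2 difference of -0.45 (SE 0.07, adjusted p = 8.61e-09) and Herc6 by -0.23 (SE 0.05, adjusted p = 0.000482). In 6694c2 cells, all 5 members were higher with IFNβ, where 7.3% of all genes were called higher. There Usp18 differed by 4.76 (SE 0.09), Isg15 by 3.70 (SE 0.09) and Herc6 by 2.06 (SE 0.09), whereas Ube2l6 and Uba7 differed by 0.73 (SE 0.08) and 0.72 (SE 0.08). The IFNγ level of Usp18 was 24.7% of its IFNβ level in B16F10 cells and 3.74% in 6694c2 cells, and that of Uba7 was 138% and 61.5%. Whether the gap between the interferons differed between the lines was tested after these values were seen. The gap was wider in the IFNβ direction in 6694c2 cells for all 5 members, where 4.58% of all genes were called in that direction. The log2 differences were 2.72 (SE 0.11) for Usp18, 2.67 (SE 0.11) for Isg15, 2.29 (SE 0.11) for Herc6 and 1.16 (SE 0.12) for Uba7. Ube2l6 differed by 0.33 (SE 0.10, adjusted p = 0.0302), and this call was lost without B16F10 IFNγ replicate 1 (adjusted p = 0.0573) or 3 (0.0724), B16F10 IFNβ replicate 1 (0.0747), 6694c2 IFNγ replicate 2 (0.0958) or 6694c2 IFNβ replicate 2 (0.164).

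With STING agonist, all 5 members were called higher in B16F10 cells, where 1.93% of all genes tested were called higher. Isg15 had the second smallest p of all 21138 genes in that comparison, and its adjusted p was 1.22e-113. As a share of the IFNβ level in the same line, the STING agonist level was 26.1% for Isg15, 18.3% for Herc6, 12.9% for Usp18, 11.6% for Uba7 and 10.0% for Ube2l6. In 6694c2 cells, 0 of the 5 members were called, where 0.203% of all genes were called higher. At an unadjusted p under 0.05, 1 member passed there, Isg15, as did 7.81% of all genes tested, and DESeq2 called 0 members. With no filter on low counts Isg15 was called there (log2 fold change 0.62, adjusted p = 0.0414). The summed epithelial markers were higher in the B16F10 STING agonist libraries, as given above. The highest median share of an epithelial marker in those libraries was 1.63%, against 1.39% in the vehicle libraries, and this share of the highest 6694c2 level would be 11.6 CPM for Isg15, 8.20 for Usp18, 2.701 for Ube2l6, 1.85 for Uba7 and 1.001 for Herc6. The group means with STING agonist were 187, 113, 44.4, 7.51 and 60.4 CPM, against 48.9, 50.5, 24.6, 5.44 and 38.9 with vehicle. The same product with the vehicle share would be 9.97, 7.03, 2.32, 1.58 and 0.858 CPM. These products use the median share of a list with markers near 0 in both lines, such as Cldn4 and Grhl2. The summed share rose more, from 0.114% to 0.163% with vehicle to 0.831% to 1.09% with STING agonist, and no product was taken with it. In 6694c2 cells the melanocyte trace was lower with STING agonist than with vehicle, as given above. The part of either trace in these results was not tested.

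Without treatment the system was low in 6694c2 cells. All 5 members were called lower in 6694c2 vehicle libraries than in B16F10 vehicle libraries, where 29.3% of all genes tested were called lower. The log2 difference was -4.96 (SE 0.13) for Usp18, -4.69 (SE 0.13) for Isg15 and -4.34 (SE 0.12) for Herc6, which are 31.2-fold, 25.9-fold and 20.2-fold lower. Ube2l6 differed by -2.87 (SE 0.12) and Uba7 by -2.11 (SE 0.19). The 6694c2 vehicle values rest on 17 to 68 reads per gene and library. A share of 0.468%, the highest median share of a melanocyte marker in those libraries, of the B16F10 vehicle level would be 0.229 CPM for Isg15 and 0.236 for Usp18, and of the highest B16F10 level 3.36 and 4.10 CPM. The measured group means were 1.89 (SD 0.84) and 1.63 (SD 0.63) CPM (n = 3), and the part of the trace in them was not tested.

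The response against vehicle also differed between the lines, and the vehicle levels, which were far apart as given above, are part of it. With IFNβ, all 5 members rose more in 6694c2 cells than in B16F10 cells, where 6.16% of all genes had a higher response called. The log2 difference of the responses was 4.69 (SE 0.16) for Isg15, 4.17 (SE 0.16) for Usp18, 2.92 (SE 0.21) for Uba7, 1.91 (SE 0.16) for Herc6 and 1.46 (SE 0.14) for Ube2l6. With IFNγ, 4 of the 5 rose more in 6694c2 cells (4.52% of all genes), by 2.02 (SE 0.17) for Isg15, 1.76 (SE 0.22) for Uba7, 1.44 (SE 0.18) for Usp18 and 1.13 (SE 0.15) for Ube2l6. Herc6 had a difference of -0.37 (95% interval -0.74 to -0.01, adjusted p = 0.235) and did not pass. With STING agonist, the response of Isg15 and Ube2l6 was lower in 6694c2 cells, where neither passed against vehicle, and 1.56% of all genes had a lower response called. The differences were -1.33 (SE 0.22, adjusted p = 0.000109) for Isg15 and -0.999 (SE 0.18, adjusted p = 0.000341) for Ube2l6. Usp18 differed by -0.79 (95% interval -1.24 to -0.33, adjusted p = 0.0525), Herc6 by -0.62 (-1.04 to -0.21, adjusted p = 0.124) and Uba7 by -0.22 (-0.79 to 0.35, adjusted p = 0.849), and these 3 did not pass. DESeq2 called 4 of the 5, adding Usp18 (adjusted p = 0.00609) and Herc6 (0.0473). With edgeR, Usp18 passed with RLE size factors (adjusted p = 0.0484), with no filter (0.00807), with a replicate block (0.0439), in a robust fit (0.0287) and with only the groups compared (0.0313). It also passed without B16F10 vehicle replicate 3 (adjusted p = 0.0256) or without 6694c2 vehicle replicate 2 (0.00497), and its adjusted p ran to 0.458 over all alternatives. A larger fold change did not always give a higher level. With IFNβ, mean Isg15 was 715 CPM in 6694c2 cells and 717 in B16F10 cells, with ranges that overlapped. Mean Usp18, Ube2l6 and Herc6 were 1.74, 2.67 and 5.36 times higher in B16F10 cells, with ranges apart, while Uba7 was 1.75 times higher in 6694c2 cells.

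The levels of the members relative to each other were compared per kilobase of exon, since long genes collect more reads. On this scale Isg15 had the highest mean in all 8 groups, and only in 6694c2 vehicle libraries did its range overlap that of the next member, Ube2l6. In B16F10 cells Uba7 was the lowest in every group, at 0.813 CPM per kilobase with vehicle and 9.69 with IFNβ, against 64.7 and 949 for Isg15. In 6694c2 cells Herc6 was the lowest with IFNγ (1.62 CPM per kilobase) and IFNβ (6.62), with ranges apart from the next member, and its range overlapped that of Uba7 with STING agonist and with vehicle. The balance between modifier and enzymes also moved with the interferon. The log2 ratio of Uba7 to Isg15 per kilobase was -5.14 (SD 0.07) with IFNγ and -6.61 (SD 0.10) with IFNβ in B16F10 cells, and -2.81 (SD 0.16) and -5.81 (SD 0.23) in 6694c2 cells. The log2 ratio of Usp18 to Isg15 went the other way, from -2.60 (SD 0.03) with IFNγ to -1.59 (SD 0.08) with IFNβ in B16F10 cells and from -3.45 (SD 0.12) to -2.39 (SD 0.06) in 6694c2 cells. Each of these pairs of groups was apart (n = 3), and the ratios were not tested. The log2 ratio of Herc6 to Isg15 was -7.16 (SD 0.04) in 6694c2 cells with IFNβ, lower than in any other group.

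**Figure D3:**
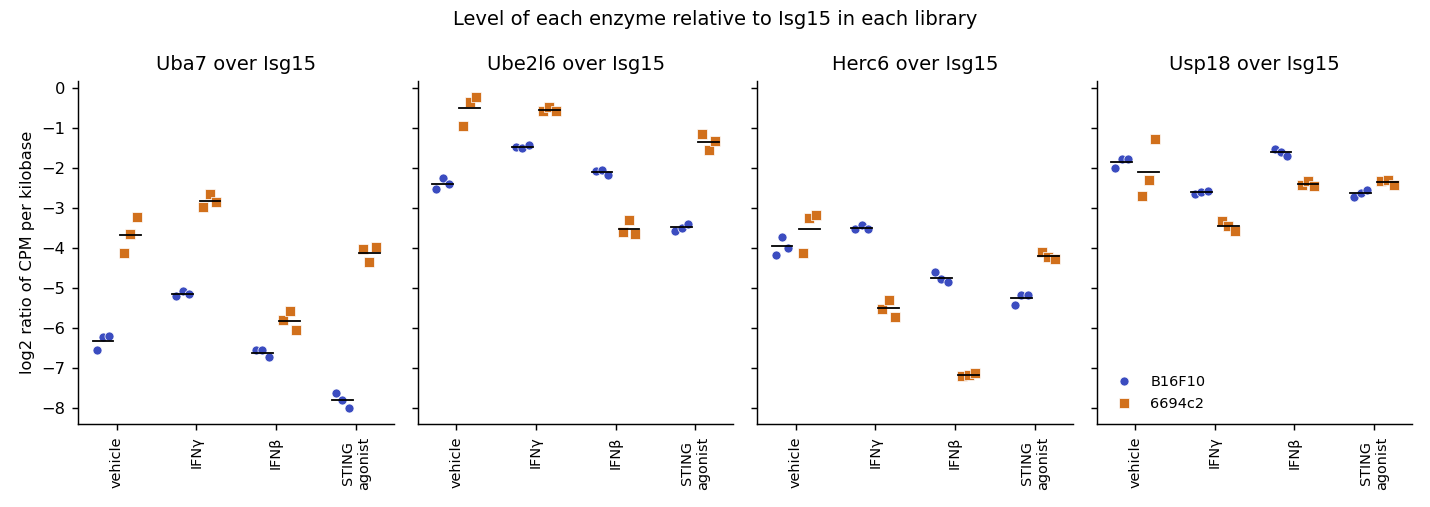
Log2 ratio of each enzyme to Isg15 per kilobase of exon in the 24 libraries, with 1 panel per enzyme, circles for B16F10, squares for 6694c2 and black lines for group means (n = 3). Uba7 over Isg15 was higher with IFNγ than with IFNβ in both lines, and Usp18 over Isg15 was lower.

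Related genes were taken from lists, whose counts with IFNβ stand beside 12.7% of all genes called higher and 11.2% called lower in B16F10 cells, and 10.4% and 7.86% in 6694c2 cells. Of 7 other proteins reported to ligate ISG15 or to cleave it, 1 rose with IFNβ in each line, Trim25, a ligase of the TRIM family, and in B16F10 cells 2 proteases fell, Usp14 by 0.31 and Usp21 by 0.27 on the log2 scale. Trim25 changed by 1.62 (SE 0.07) in B16F10 cells and 2.57 (SE 0.07) in 6694c2 cells, and the list's median was -0.06 and 0.08. Of 4 other HERC ligases, 2 rose in B16F10 cells with IFNβ (Herc2 by 0.31 and Herc3 by 0.48) and 0 in 6694c2 cells, with list medians of 0.22 and -0.06. Of 21 genes of the ubiquitin, SUMO, NEDD8, FAT10 and UFM1 systems, 3 rose and 7 fell in B16F10 cells with IFNβ, and 3 rose and 1 fell in 6694c2 cells, with medians of -0.03 and -0.02. Ubd, which encodes the FAT10 modifier, had another pattern. It held 0 reads in every B16F10 vehicle library and 4 to 21 reads with IFNγ, and in 6694c2 cells 2 to 5 reads with vehicle, 474 to 936 with IFNγ and 2 to 9 with IFNβ. Ubd rose by 7.35 (SE 0.23) with IFNγ in 6694c2 cells and was lower with IFNβ than with IFNγ by a log2 difference of -7.36 (SE 0.21), whereas the ISG15 members rose with both interferons.

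In a list of 8 genes of the type I interferon receptor, its kinases and ISGF3, to which Skp2 had been added, 5 rose with IFNβ in each line, with medians of 0.36 in both. Skp2 fell in both lines, and it encodes an F-box subunit of a ubiquitin ligase that is part of neither the receptor nor ISGF3. Stat2 rose by 4.16 (SE 0.08) in B16F10 cells and 4.70 (SE 0.12) in 6694c2 cells. Irf9 rose by 1.32 (SE 0.07) and 4.35 (SE 0.10). With vehicle, Irf9 stood at 43.1 (SD 1.10) CPM in B16F10 cells and 5.10 (SD 0.23) in 6694c2 cells (n = 3). With STING agonist, 3 of the 8 rose in B16F10 cells, among them Stat2 by 1.04 (SE 0.09) and Irf9 by 0.39 (SE 0.07), and 0 in 6694c2 cells. Of 11 reported substrates of ISG15, 6 rose with IFNβ in B16F10 cells, and in 6694c2 cells 4 rose and 1 fell, with medians of 0.20 and 0.14. Mx1, Ifih1, Ddx58 and Eif2ak2, all known interferon-stimulated genes of antiviral defense, had the 4 largest changes in both lines.

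**Figure D4:**
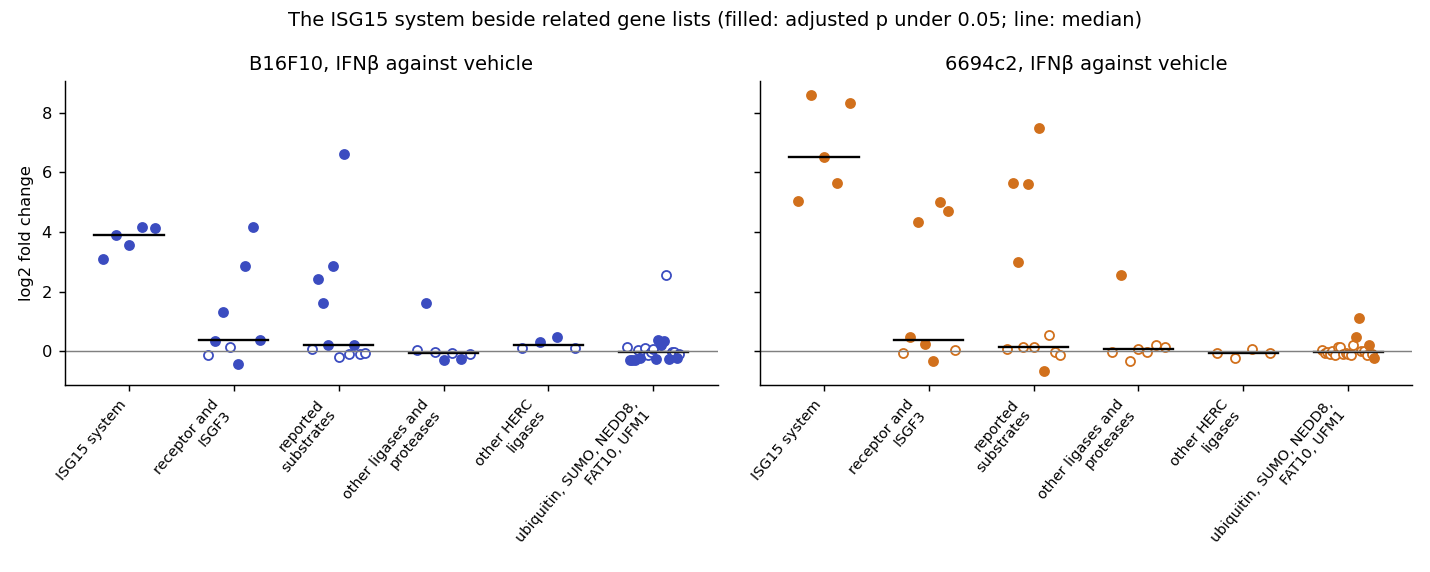
Log2 fold change with IFNβ against vehicle for each gene of the ISG15 system and of 5 related lists, with 1 panel per line. The receptor and ISGF3 list also holds Skp2, filled circles mark an adjusted p-value under 0.05 and black lines the list medians, which were 3.88 and 6.52 for the ISG15 system and between -0.06 and 0.36 for the related lists.

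Across the 24 libraries, which share 2 lines and 4 treatments, the members followed each other to different degrees. Pearson's r of log2(CPM + 1) was highest between Isg15 and Usp18 (0.983) and lowest between Uba7 and Herc6 (0.747). Among 12387 genes with a mean of at least 1 CPM, the genes with the pattern most like Isg15 were Ddx58 (r = 0.996), Oas1a (0.993) and Ifit1 (0.990). Those most like Usp18 were Oas1g (0.995), Ifit1 (0.992) and Cmpk2 (0.989), so Ifit1 was named for both. Uba7 was most like Dtx3l (0.993), Ifi203 (0.990) and Oasl2 (0.986), and Ube2l6 was most like Trim21 (0.994), Mlkl (0.992) and Parp10 (0.990). Herc6 was most like Rbm43 (0.993), Ifit2 (0.990) and Ogfr (0.985). Dtx3l showed the same order as Uba7 within B16F10 cells, with 219 CPM with IFNγ and 158 with IFNβ, and Ifit1 that of Isg15, with 428 and 925.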

How the data were processed

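RNA of cultured B16F10 and 6694c2 cells was sequenced in 24 libraries, with 3 libraries in each of 8 groups taken from the labels. Per the study's methods, the authors trimmed reads with cutadapt, aligned them with STAR and counted them per gene with Rsubread, and the deposited values are raw read counts. The submitters' processing notes name mm10 without saying for which data. Strand setting, annotation release and treatment of multi-mapping reads are not given in the sources used here. Genes with at least 10 reads over the 24 libraries (21138 of 49315) were tested with edgeR 4.0.16 (TMM, quasi-likelihood F test, Benjamini-Hochberg adjustment) in R 4.3.3, with 1 fit per line and a fit of all 24 libraries for comparisons between lines. Standard errors are the size of the log2 fold change over the square root of F. The spread was shared strongly between genes in the B16F10 fit (prior degrees of freedom 400.0, against 8 residual), so the smallest p-values there rest on the fitted trend. Alternatives were DESeq2 1.42.0, RLE size factors, other filters, a robust fit, other sets of libraries, a replicate block and leaving out each library. Scripts were tested on simulated data. Positions were checked against GENCODE M21 (GRCm38), in which all 5 members had the same span. Exon lengths came with the deposited counts and were not checked, and promoter sequences were taken from RefSeq. For each member, the 3 genes with the highest Pearson's r over the 24 libraries were named. The members, lists and tests were chosen with earlier results of these data known, and the comparison of the gap between interferons was added after values were seen. The 6 single-cell samples of the series were not used here.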

Additional observations from a re-analysis of the deposited data

Results flagged for a closer look

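The lines differed by the interaction test (edgeR's quasi-likelihood test, adjusted over all genes) for 16 combinations of gene and comparison. Of these, 5 concern the gap between interferons and the rest the response to a treatment. Values are log2 differences, 6694c2 minus B16F10. With IFNβ they were 4.69 for Isg15, 4.17 for Usp18, 2.92 for Uba7, 1.91 for Herc6 and 1.46 for Ube2l6 (6.16% of all genes were called higher). With IFNγ they were 2.02 for Isg15, 1.76 for Uba7, 1.44 for Usp18 and 1.13 for Ube2l6 (4.52% called higher). With STING agonist they were -1.33 for Isg15 and -0.999 for Ube2l6 (1.56% called lower). The gap between IFNβ and IFNγ differed by 2.72 for Usp18, 2.67 for Isg15, 2.29 for Herc6, 1.16 for Uba7 and 0.33 for Ube2l6 (4.58% called higher). That comparison was added after values were seen. It is the IFNβ difference less the IFNγ difference, so it is not separate from those results. A line and its culture cannot be told apart in these differences, and the vehicle libraries enter the responses but not the gap between interferons.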

How the results depend on the processing

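Of 1005 member fold changes recomputed under the alternatives, 980 kept their direction and their side of the threshold, 12 lost a call, 11 gained one and 2 changed sign. With STING agonist in 6694c2 cells, 1 member (Isg15) was called with no filter, and leaving out 1 library gave 0 to 1. Over those fits the Herc6 log2 fold change ran from -0.056 to 0.058 and was never called. For the STING agonist difference between lines, DESeq2 called 4 members, and leaving out 1 library gave 2 to 3. Leaving out 1 library gave 4 to 5 called members for STING agonist in B16F10 cells and for the gap between interferons. The gap call of Ube2l6 was also lost with RLE size factors (adjusted p = 0.0542) and with only the groups compared (0.0943). Over all genes, STING agonist calls in B16F10 cells numbered 732, against 1271 with only the groups compared, 459 in a fit of all 24 libraries and 415 to 568 without 1 library. In 6694c2 cells they numbered 76, against 44 with filterByExpr, 159 with no filter, 132 with only the groups compared and 42 to 105 without 1 library. For the difference between lines they numbered 449, against 743 with DESeq2, 793 with only the groups compared and 321 to 455 without 1 library. The deviations of same-numbered libraries had correlations of -0.199 to 0.175. With 3 libraries a group, these cannot decide whether the numbers mark shared cultures, which the labels do not state. A replicate block gave 126 calls over all genes with STING agonist in 6694c2 cells, and 3 members in place of 2 for the STING agonist difference, adding Usp18 (adjusted p = 0.0439). It changed no other member call. Spearman's correlation shared 4 of the 15 most alike genes. Scaling to total reads moved 21 of 40 group means by more than 1 SD, by at most 9.77%. Depth limits the 6694c2 vehicle and STING agonist levels, where the members held 17 to 92 reads a library.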
